A study of Mus musculus with 4 samples.

Results

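Upper-layer cerebral cortex spots are the positions of a spatial transcriptomics array whose RNA was richest in 4 genes of the outer cortical layers. The measurements were unique molecular identifier (UMI) counts, each UMI standing for 1 captured probe pair. A spot is a small disc of tissue that can hold several cells of different types, so each value describes a patch of cortex and not a cell. Spots lying over tissue with at least 2000 UMIs were scored by the summed CPM of Cux2, Rasgrf2, Lamp5 and Rorb, where CPM is a gene's UMIs per 1e6 UMIs of the same spot or sum. The spots at or above the 95th percentile of that score over the 4 capture areas pooled were selected on these values, which gave 635 of 12696 spots, with a threshold of 582 CPM. Because the 4 genes chose the spots, their levels are given as a description and support nothing.

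The cerebral cortex of the mouse is built of stacked layers whose excitatory neurons differ in identity and in targets. Neurons of the upper layers connect mainly to other cortical areas, and express the transcription factors Cux1 and Cux2, while neurons of the deep layers project to the thalamus, brainstem and spinal cord. Layer 4, marked by the nuclear receptor Rorb, receives input from the thalamus. Rasgrf2 encodes a Ras exchange factor and Lamp5 a lysosome-associated membrane protein family member. Both are used as marks of superficial cortex, and Lamp5 also marks a class of inhibitory neuron.

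The samples were formalin-fixed sections of mouse brain after inoculation and resection of a tumour, all labelled day 11. Probe-based libraries came from 2 capture areas labelled TREAT (1+4 and 2+3), taken here as the hydrogel-treated animals that the series describes, and 2 labelled Vehicle (1+4 and 2+3). The series states 4 animals, each area held 2 large pieces of tissue, and the labels do not tie pieces to animals. The p-values below therefore rest at most on the spread between areas, which may be technical. edgeR also borrows that spread in part from other genes, so a p-value need not follow the spread of its own gene. The labels name neither the tumour line nor the strain or age of the animals.

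The used spots numbered 3349 in TREAT 1+4, 3004 in TREAT 2+3, 3016 in Vehicle 1+4 and 3327 in Vehicle 2+3, with between 33999917 and 56150197 UMIs per area. The areas shared between 2181 and 2665 spot barcodes in pairs, as arrays of 1 design do, since a barcode marks a position. Lesion spots, those at or above the pooled 80th percentile of the summed CPM of 21 proliferation and tumour genes, made up 6.24% and 12.9% of the TREAT areas and 26.4% and 34.4% of the Vehicle areas. How many cells of a type lie under a spot and how much RNA each gives cannot be told apart in these sums.

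Upper-layer spots numbered 185 in TREAT 1+4, 168 in TREAT 2+3, 175 in Vehicle 1+4 and 107 in Vehicle 2+3. Their UMIs summed to 3167799 and 2530582 in the TREAT areas, against 1343604 and 661371 in the Vehicle areas. The median upper-layer spot held 15302 and 12864 UMIs in the TREAT areas, against 7191 and 4644 in the Vehicle areas. Vehicle 2+3 stood apart from the other areas: its upper-layer spots were less deep than its other spots, whose median was 9774 UMIs. In the other 3 areas the medians of upper-layer and other spots were close, at 14955, 12234 and 7837 UMIs for the other spots of TREAT 1+4, TREAT 2+3 and Vehicle 1+4.

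The score rested on few molecules, with a median of 9 UMIs per upper-layer spot and a range of 2 to 68. In all, 111 upper-layer spots had 3 or fewer such UMIs, of which 2 and 8 lay in the TREAT areas and 48 and 53 in the Vehicle areas. A total of 45 spots had UMIs of 1 of the 4 genes, and 129 had UMIs of all 4. The members just inside the threshold scored 581.801, 582.199 and 583.487 CPM, and the spots just outside it 581.734, 581.015 and 580.439 CPM. Within 10% of the threshold lay 120 members above it and 152 other spots below it. The score was 0 in 46.1% of the 12061 other spots.

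The make-up of the score differed between the areas, which is a property of the choice and not a result. Lamp5 gave 41.6% and 51.3% of the score UMIs in the TREAT areas, against 29.8% and 19.6% in the Vehicle areas. Cux2 gave 19.4% and 14.7% in the TREAT areas, against 37.8% and 42.2% in the Vehicle areas. Rasgrf2 lay between 28.5% and 34.0%, and Rorb between 3.92% and 6.05%, over the 4 areas. The 259 spots led by Lamp5 had at least 3 upper-layer neighbours in 62.5% of cases. The share was 41.4% among the 181 spots led by Cux2 and 22.9% among the 192 led by Rasgrf2.

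Position on the array was not used by the rule. In the maps of the 4 areas, 282 of the 635 upper-layer spots lay in patches with at least 3 upper-layer neighbours, many of them near the outer border of the tissue. In Vehicle 2+3 such spots were 28 of 107. Of the occupied neighbour positions of all upper-layer spots, 48.8% and 54.4% in the TREAT areas and 38.8% and 26.4% in the Vehicle areas were also upper-layer spots. Around other spots the same share was 2.85% and 2.49% in the TREAT areas and 3.54% and 2.21% in the Vehicle areas. The median upper-layer spot was 3 and 3 array steps from the nearest position off tissue in the TREAT areas, and 3 and 2 steps in the Vehicle areas. For other spots these medians were 5 and 4 steps in the TREAT areas, and 3 and 4 in the Vehicle areas. In all, 80 upper-layer spots lay on the outermost frame of the array, where the array ends and not necessarily the tissue.

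No upper-layer spot was a lesion spot (0 of 635). The median distance to the nearest lesion spot was 18 and 11.5 array steps in the TREAT areas and 12 and 12 steps in the Vehicle areas. Within 5 steps of a lesion spot lay 0 and 0 upper-layer spots of the TREAT areas and 20 and 3 of the Vehicle areas. The distances thus overlapped between groups but were not matched.

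**Figure D1:**
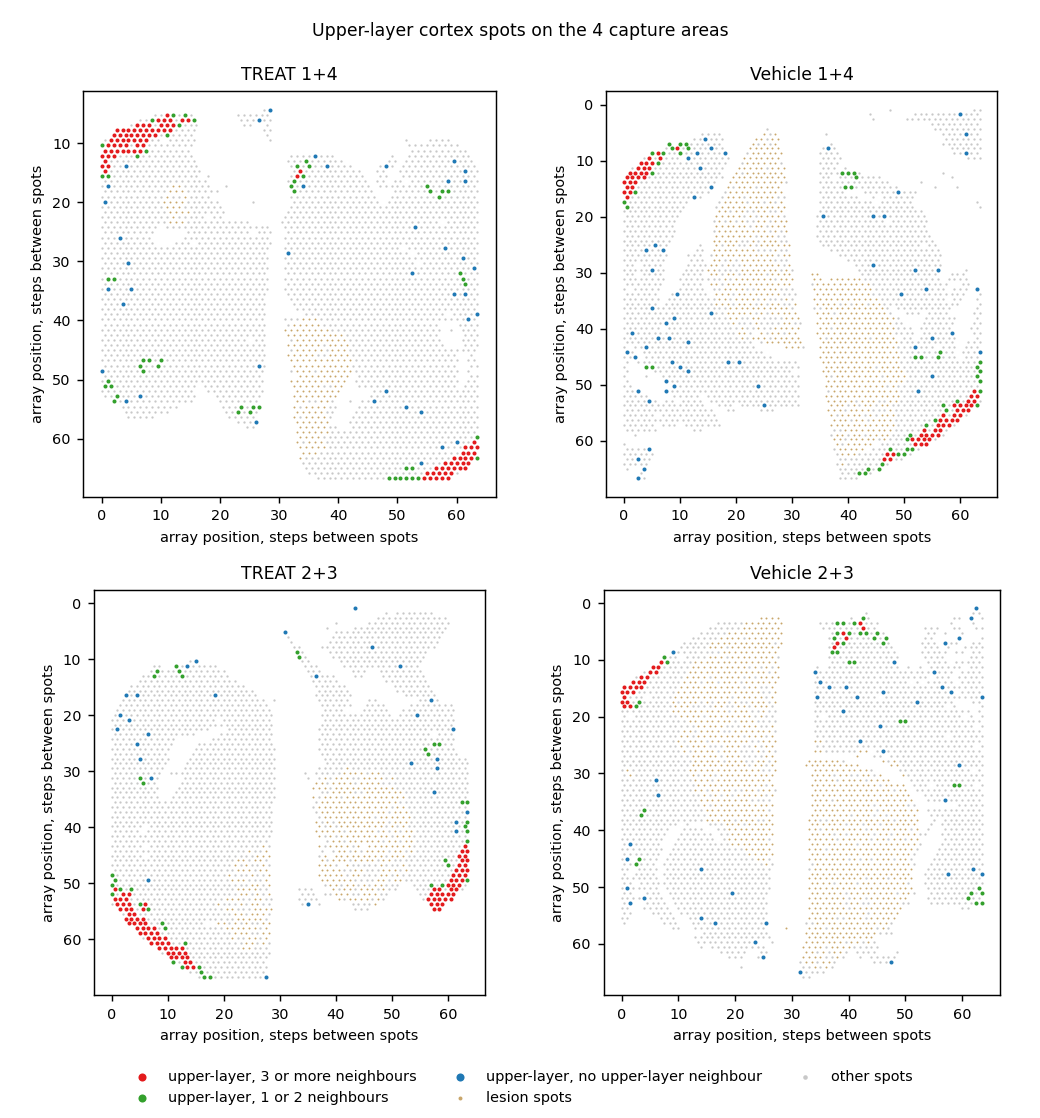
Maps of the 4 capture areas, with TREAT on the left and Vehicle on the right, both axes in steps between neighbouring spots. Upper-layer spots are coloured by the number of upper-layer spots among their 6 nearest positions (282 with 3 or more, 180 with 1 or 2, 173 with none). Those with 3 or more form patches near the tissue border, and single spots are scattered over the tissue.

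A total of 282 upper-layer spots had at least 3 upper-layer neighbours and are called contiguous here. They numbered 91 and 97 in the TREAT areas and 66 and 28 in the Vehicle areas. Another 173 had none and are called isolated, with 40 and 30 in the TREAT areas and 60 and 43 in the Vehicle areas. This split was made after the maps had been seen. Contiguous spots were deeper, with median UMIs of 17095 and 13396 in the TREAT areas and 9796 and 11320 in the Vehicle areas. Isolated spots had medians of 14259 and 9251 UMIs in the TREAT areas and 4520 and 3492 in the Vehicle areas. The median number of score UMIs was 18 and 13 in contiguous TREAT spots and 10 and 9.5 in contiguous Vehicle spots. In isolated spots it was 9 and 6 in TREAT and 3 and 3 in Vehicle.

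The 2 kinds of spot differed in the marker genes of other regions. The 12 other upper-layer markers summed to 1727 and 1570 CPM in contiguous TREAT spots and 1606 and 1477 CPM in contiguous Vehicle spots. In isolated spots the same sum was 946 and 877 CPM in TREAT and 894 and 798 CPM in Vehicle. Every area had the contiguous value above the isolated one, by more than the 4 areas differed within either kind. Myelin genes ran the other way, with 1625 and 1516 CPM in contiguous TREAT spots and 1263 and 1822 CPM in contiguous Vehicle spots. Isolated spots held 6078 and 5845 CPM of myelin genes in TREAT and 8944 and 10626 CPM in Vehicle.

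The regional markers of the isolated spots differed between the groups. Markers of the striatum, the forebrain nucleus of movement and reward, summed to 2784 and 1792 CPM in isolated TREAT spots and to 242 and 332 CPM in isolated Vehicle spots. Markers of the thalamus, the relay below the cortex, summed to 443 and 198 CPM in isolated TREAT spots and 1314 and 1951 CPM in isolated Vehicle spots. In contiguous spots the 4 areas lay close together for both lists. The striatum list summed to 589 and 626 CPM in TREAT and 552 and 402 CPM in Vehicle, and the thalamus list to 231 and 200 CPM in TREAT and 186 and 283 CPM in Vehicle. Each marker of both lists had at least 1 UMI in the upper-layer spots of both groups. Comparisons of TREAT with Vehicle over all upper-layer spots therefore included spots with different regional markers, and contiguous values are given beside those for the main genes and lists. The 2 interaction comparisons below used all upper-layer spots only.

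**Figure D2:**
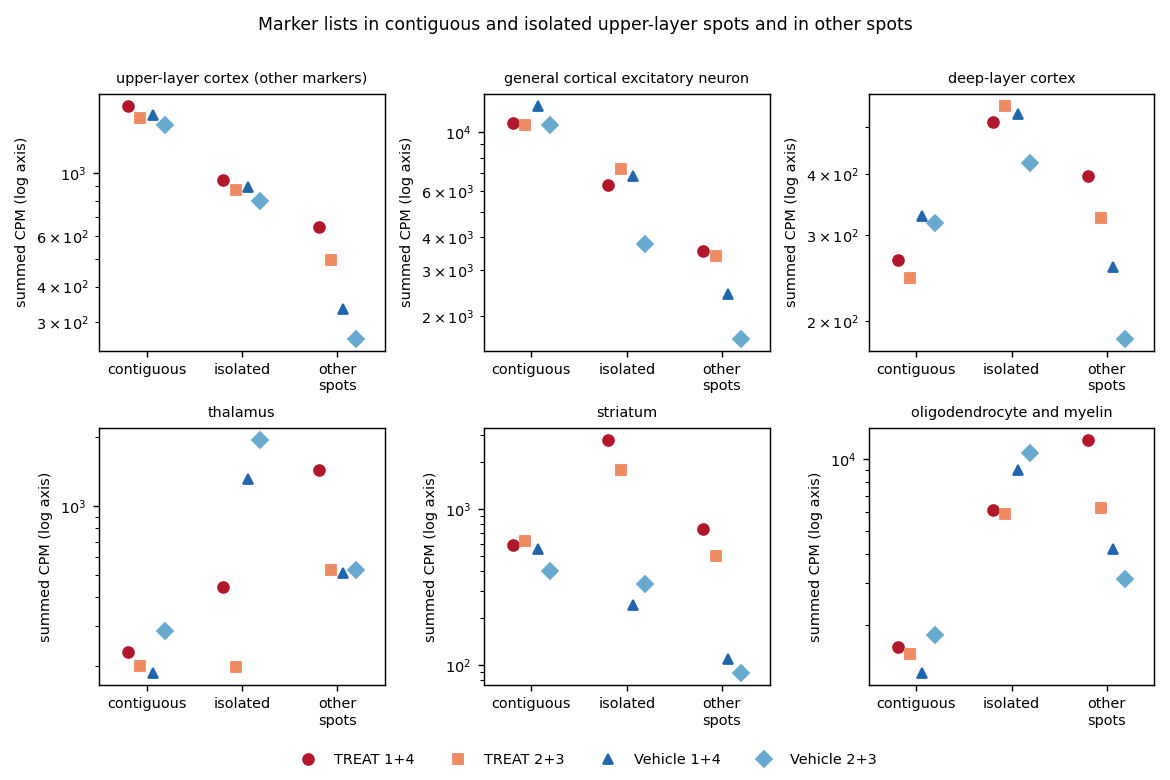
Summed CPM of 6 marker lists (log axis) in contiguous upper-layer spots, isolated upper-layer spots and other spots, with 1 point per capture area. Other upper-layer markers are highest in contiguous spots of all 4 areas, striatum markers are high in isolated TREAT spots (2784 and 1792 CPM), and thalamus markers in isolated Vehicle spots (1314 and 1951 CPM).

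The label was checked against markers of the cortex that the rule did not use. Of 12 other upper-layer markers, 9 were higher in upper-layer than in other spots of all 4 areas, as were 2918 of the 8666 genes with at least 20 CPM, with a median log2 ratio of 1.498 over the list. Calb1, a calcium buffer, stood at 616 and 513 CPM in the upper-layer spots of the TREAT areas and 435 and 438 CPM in those of the Vehicle areas. In other spots Calb1 stood at 224 and 150 CPM in TREAT and 80.1 and 51.7 CPM in Vehicle. Cux1, the relative of Cux2, had 163 and 176 CPM in upper-layer TREAT spots and 118 and 107 CPM in upper-layer Vehicle spots, a mean log2 ratio to other spots of 1.42 ± 0.30 (SD, n = 4 areas). Mdga1, Inhba and Rgs8 were higher in 3 of 4 areas each, with mean log2 ratios of 0.05, 0.28 and 1.00.

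Against deep-layer spots, defined by the same kind of score on Fezf2, Hs3st4, Rprm and Tbr1, the marker lists also stood apart. The other upper-layer markers had a median log2 ratio of 0.96 to deep-layer spots, and the deep-layer list one of -1.86, which its own score genes partly fix. A rise over deep-layer spots was not particular to cortex markers. The thalamus list stood at 1.29, the meningeal fibroblast list at 0.88 and the striatum list at 0.57. To other spots the thalamus list had a median log2 ratio of -0.86. The deep-layer list had one of 0.14, with 2 of 13 genes higher and 3 lower in all 4 areas, so it was not depleted against other spots. The striatum list had one of 0.77, with 5 of 10 genes higher in all 4 areas. Rspo1, an enhancer of Wnt signalling listed with layer 4 and 5a, had 33.8 and 22.9 CPM in upper-layer TREAT spots and 24.6 and 25.7 CPM in upper-layer Vehicle spots. Deep-layer spots had 7.21 and 1.27 CPM of Rspo1 in TREAT and 6.32 and 8.81 CPM in Vehicle. Cplx3, a complexin of deep cortical neurons that no score used, had a mean log2 ratio of -2.52 to deep-layer spots. Slc17a7, the vesicular glutamate transporter of cortical excitatory neurons, was higher in upper-layer than in other spots (mean log2 ratio 1.64 ± 0.65), but averaged 2083 CPM in upper-layer spots and 2912 CPM in deep-layer spots. Only 17 spots met both scores.

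The 15 genes with the highest ratio to other spots are described next. Of the 8666 genes with at least 20 CPM on one side in every area, 2918 were higher in upper-layer spots of all 4 areas and 3235 were lower, with 1260 and 1221 of them at least 2-fold apart on average. Vip, the peptide of a class of cortical interneuron, had 104 and 78.2 CPM in upper-layer TREAT spots and 70.0 and 57.5 CPM in upper-layer Vehicle spots. In other spots Vip had 12.9 and 16.5 CPM in TREAT and 6.43 and 1.91 CPM in Vehicle, so its mean log2 ratio was 3.41 ± 1.12. Igfn1 led the order with a mean log2 ratio of 3.84 ± 1.03. Among channels of the ether-a-go-go family, Kcnh5 had a mean log2 ratio of 2.82 ± 0.49, Kcnh7 2.57 ± 0.54 and Kcnh3 2.56 ± 0.65. Kcnh5 was also in the fixed layer 4 and 5a list.

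Several of these leaders serve synapses. Slc30a3, which loads zinc into glutamatergic vesicles, had a mean log2 ratio of 2.60 ± 0.87. Camk2n1, an inhibitor of the calcium-dependent kinase CaMKII, stood at 6673 and 5073 CPM in upper-layer TREAT spots and 6617 and 5433 CPM in upper-layer Vehicle spots, with a mean log2 ratio of 2.60 ± 0.53. Mef2c, an activity-regulated transcription factor, had 2.58 ± 0.67, and Gsg1l, an auxiliary protein of AMPA receptors, 2.74 ± 0.87. The axon guidance receptor Robo3 had 2.87 ± 0.48, Epop 2.69 ± 0.50, Gm11549 2.55 ± 0.50, Rnf39 2.54 ± 0.84, Tmem215 2.52 ± 0.52 and Igfbp6, a binder of insulin-like growth factors, 2.52 ± 0.16. Igfbp6 had the smallest spread of the 15, with log2 ratios between 2.34 and 2.71 in the 4 areas. Against deep-layer spots Kcnh5 kept a mean log2 ratio of 2.38 and Igfn1 of 2.32, whereas Gm11549 stood at -0.13.

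Inhibitory neuron genes were also high, though they are not specific to the outer layers. Of 15 interneuron genes, 12 were higher in upper-layer than in other spots of all 4 areas, and the median log2 ratio was 1.03. Against deep-layer spots, Vip had a mean log2 ratio of 1.53 and Reln, the layer 1 glycoprotein reelin, 0.98. Sst and Pvalb, which mark the other large interneuron classes, stood at -0.24 and -0.44. The synaptic list had 14 of 16 genes higher in all 4 areas (median log2 ratio 1.47), the glutamate receptor list 12 of 15 (1.45) and the GABA receptor list 11 of 13 (1.34). Of 18 immediate early genes, 7 were higher and 3 lower in all 4 areas, with a median log2 ratio of 0.29. Arc, Egr1 and Fos, chosen after their values were seen, had mean log2 ratios of 2.05, 1.78 and -0.18.

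At the low end stood genes of cell division, such as Mki67 and Kif20a, and genes known from germ cells, such as Tex101 and Tex19.1. Mki67, a mark of cycling cells, had 1.89 and 3.56 CPM in upper-layer TREAT spots and 2.98 and 6.05 CPM in upper-layer Vehicle spots. In other spots Mki67 had 74.8 and 152 CPM in TREAT and 144 and 168 CPM in Vehicle. The 10 lowest genes were Tex101, Rhox5, Timp1, Gm773, Insl6, Csn3, Tex19.1, Kif20a, Prr11 and Mki67, with mean log2 ratios between -5.61 and -5.14. Of 21 proliferation and tumour genes, 20 were lower in upper-layer spots of all 4 areas, as were 18 of 18 interferon-induced genes, 16 of 16 antigen presentation genes and 16 of 16 mesenchymal glioma genes. Lesion spots are among the other spots, in unequal shares, so these ratios describe cortex against a mixture. T and NK cell markers summed to 16 and 16 CPM in upper-layer TREAT spots and 10 and 27 CPM in upper-layer Vehicle spots, with Cd3e, Cd8b1 and Klrd1 at 0 in Vehicle. The Vehicle sums held 1343604 and 661371 UMIs, against 3167799 and 2530582 in TREAT, so these zeros do not show absence.

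The first comparison between groups asked which genes differed between TREAT and Vehicle within upper-layer spots. Counts were summed over the upper-layer spots of each area and tested with edgeR's quasi-likelihood test, 2 areas against 2. No gene passed an adjusted p of 0.05 (0 of 12106 tested, 0%). At an unadjusted p under 0.05, 714 genes were higher in TREAT (5.9%) and 857 lower (7.08%). DESeq2 called 58 genes and limma-trend 0, with 754 higher and 818 lower at an unadjusted p under 0.05. Calls depended on the Vehicle areas, with 537 genes without Vehicle 1+4 and 154 without Vehicle 2+3, the remaining Vehicle area being assumed to vary as the TREAT areas do. In simulated data of this depth the test recovered 71% of 2-fold and 99% of 4-fold changes and made 9 false calls. The simulation changed only genes with higher counts. It gave all genes the same spread and all areas the same mean profile, without the regional mix of the real areas. The 0 calls therefore do not show that large changes were absent.

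The 6 genes of lowest p on either side are given as values only. On the higher side, 3 of 6 belong to the striatum list. Adora2a, the adenosine receptor of striatal projection neurons, had 25.9 and 22.5 CPM in TREAT upper-layer spots, against 0.744 and 0 CPM in Vehicle. That is 139 UMIs in TREAT and 1 UMI in Vehicle, a ratio of pooled rates of 48.9 with a 95% exact counting interval of 8.63 to 1945, and an adjusted p of 0.0663. Penk, the enkephalin precursor, had 295 and 184 CPM in TREAT, against 9.68 and 40.8 CPM in Vehicle (log2 fold change 3.49 ± 0.46 SE, edgeR adjusted p = 0.0902). Ppp1r1b, the dopamine-regulated phosphatase inhibitor of the striatum, had 528 and 509 CPM in TREAT, against 253 and 192 CPM in Vehicle (1.19 ± 0.17 SE). In contiguous spots Penk had 44.7 and 39.7 CPM in TREAT, against 10.3 and 25.7 CPM in Vehicle (log2 fold change 1.42). Ppp1r1b had 361 and 405 CPM there in TREAT, against 356 and 264 CPM in Vehicle (0.25), and Adora2a was too low to be tested. Over all upper-layer spots the areas of the groups did not overlap for any of these 3 genes. Of all 12106 genes, 3022 were higher in TREAT without overlap and 2645 lower, so this is common with 2 areas a group. These 3 genes count in the striatum sums of isolated spots above, so those sums are not separate evidence. A higher level in TREAT was also not particular to upper-layer spots. In other spots 10 of 10 striatum genes were higher at an edgeR adjusted p under 0.05, as were 429 of all 20257 genes. Their median log2 fold change there was 2.15. Calls in other spots depended on the areas used, as given below.

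The other 3 higher genes do not belong to a regional list. Nol4, a nucleolar protein gene of neurons, had 112 and 132 CPM in TREAT, against 55.1 and 51.4 CPM in Vehicle (log2 fold change 1.17 ± 0.18 SE). Egr4, an activity-induced transcription factor, had 42.6 and 39.1 CPM in TREAT, against 14.9 and 12.1 CPM in Vehicle (1.54 ± 0.25 SE). Tcap, known as a sarcomere protein of muscle, had 24.9 and 17.8 CPM in TREAT, against 2.23 and 3.02 CPM in Vehicle. The edgeR adjusted p was 0.114 for Nol4 and Tcap and 0.117 for Egr4. In contiguous spots Egr4 had a log2 fold change of 1.32. All 6 higher genes were higher in each of the 4 TREAT pieces of tissue than in any of the 4 Vehicle pieces. The pieces make up the areas by which these genes were picked, so this is no independent support.

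On the lower side, Prkcd, a protein kinase C enriched in thalamic relay neurons, had 21.5 and 14.2 CPM in TREAT, against 84.8 and 162 CPM in Vehicle (log2 fold change -2.71 ± 0.32 SE). Cabp7, a calcium-binding protein of the hippocampus list, had 25.9 and 28.1 CPM in TREAT, against 79.6 and 107 CPM in Vehicle (-1.77 ± 0.21 SE). Their edgeR adjusted p was 0.0663. Both changed sign in contiguous spots, where the log2 fold change was 0.29 for Prkcd and 0.94 for Cabp7. Itm2b, an integral membrane protein gene linked to familial dementias in humans, kept its value, with 846 and 841 CPM in TREAT, against 1504 and 1648 CPM in Vehicle (-0.91 ± 0.13 SE, and -0.91 in contiguous spots). Dgkg, a diacylglycerol kinase, had 42.6 and 39.9 CPM in TREAT, against 96.8 and 96.8 CPM in Vehicle. Vim, the intermediate filament vimentin of reactive glia, had 65.0 and 94.4 CPM in TREAT, against 217 and 228 CPM in Vehicle, and Abhd12b 1.89 and 2.37 CPM, against 17.1 and 36.3 CPM. In contiguous spots Vim had a log2 fold change of -0.87, and Abhd12b was too low to be tested. Between pieces of tissue, 4 of the 6 lower genes were separate, and Vim and Dgkg overlapped, which is likewise no independent support.

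Gene lists were described by counts and medians. Over all 12106 genes the median log2 fold change was 0.00476. At an unadjusted p under 0.05, 5.9% of these genes were higher and 7.08% lower. For the 10655 genes tested in contiguous spots these shares were 5.51% and 6.77%. Of 10 thalamus genes, 7 were lower at an unadjusted p under 0.05 and none higher, with a median of -1.81. Of 8 striatum genes, 7 were higher and none lower, with a median of 1.14. Of 11 myelin genes, 8 were lower, with a median of -0.73. In contiguous spots the medians of these lists were -0.09, 0.25 and 0.10, with 1 of 8 thalamus genes lower and 1 higher, 1 of 5 striatum genes higher, and 0 of 11 myelin genes past that level. None of these genes passed the adjusted threshold, in either set of spots.

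The reactive astrocyte, homeostatic microglia, antigen presentation and interferon-induced lists had medians below that of all genes in both sets of spots. This was not particular to glial and immune genes. The mesenchymal glioma list stood at -0.99 over all upper-layer spots and -0.58 in contiguous spots, and the proliferation and tumour list at -0.77 and -0.39. The disease-associated microglia list (-0.84 and -0.14) and the hippocampus list (-0.71 and -0.19), among others, also had medians below that of all genes. The infiltrating macrophage list, with 2 genes tested, did not (median 0.59 over all upper-layer spots). Of 12 reactive astrocyte genes, 7 were lower at an unadjusted p under 0.05 over all upper-layer spots, with a median log2 fold change of -1.06. In contiguous spots it was 4 of 9, with a median of -0.67. Gfap, the filament of reactive astrocytes, had 259 and 496 CPM in TREAT, against 922 and 1034 CPM in Vehicle, over all upper-layer spots. In contiguous spots Gfap had 210 and 391 CPM in TREAT, against 476 and 772 CPM in Vehicle (log2 fold change -1.05 ± 0.24 SE, edgeR adjusted p = 0.0574). The groups did not overlap in either set, but 2645 of 12106 genes over all upper-layer spots were lower without overlap. In contiguous spots 2121 of 10655 were. Of 10 homeostatic microglia genes, 6 were lower (median -0.72), and 3 of 9 in contiguous spots (-0.54).

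Of 15 antigen presentation genes, 7 were lower at an unadjusted p under 0.05 over all upper-layer spots (median -1.04), and 4 of 13 in contiguous spots (-0.67). Over all upper-layer spots the genes tested summed to 611 and 1279 CPM in TREAT, against 1423 and 2631 CPM in Vehicle, with no overlap. In contiguous spots they summed to 599 and 1326 CPM in TREAT, against 1140 and 2250 CPM in Vehicle, and the groups overlapped. Of 14 interferon-induced genes, 4 were lower (median -0.82), and 1 of 11 in contiguous spots (-0.345). The share of lesion spots was also lower in both TREAT areas, and its part in these values was not tested. With only upper-layer spots at least 5 steps from a lesion spot, edgeR called 0 genes, with 608 higher and 789 lower at an unadjusted p under 0.05. The full set of upper-layer spots also gave 0 calls, so this count cannot show whether the distance mattered. The list values were not taken again in this setting.

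The medians of the lists of the neurons themselves stayed near that of all genes, though some of their members differed at an unadjusted p under 0.05. The other upper-layer markers had a median log2 fold change of 0.18 (3 of 11 higher at an unadjusted p under 0.05), and 0.09 in contiguous spots. There 1 of 10 was higher and 2 lower, and 1 of the lower ones, Wfs1, passed the adjusted threshold. Cux1 had an edgeR adjusted p of 0.22 and Calb1 of 0.343. The general excitatory list had a median of 0.02 and the synaptic list of 0.16, with 2 of 12 and 3 of 16 genes higher and 1 of 12 and 1 of 16 lower. In contiguous spots these medians were -0.17 and -0.02, with 1 of 12 and 1 of 16 genes higher and 2 of 12 and 3 of 16 lower. Of 13 GABA receptor genes, 4 were higher and none lower (median 0.15), and 3 of 13 in contiguous spots (0.17). Gabrd, a subunit of receptors outside the synapse, had 112 and 104 CPM in TREAT, against 69.4 and 67.6 CPM in Vehicle, in contiguous spots (edgeR adjusted p = 0.22). Nuclear oxidative phosphorylation genes had a median of 0.08, with 3 of 20 higher and 1 lower, and 0.08 in contiguous spots.

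**Figure D3:**
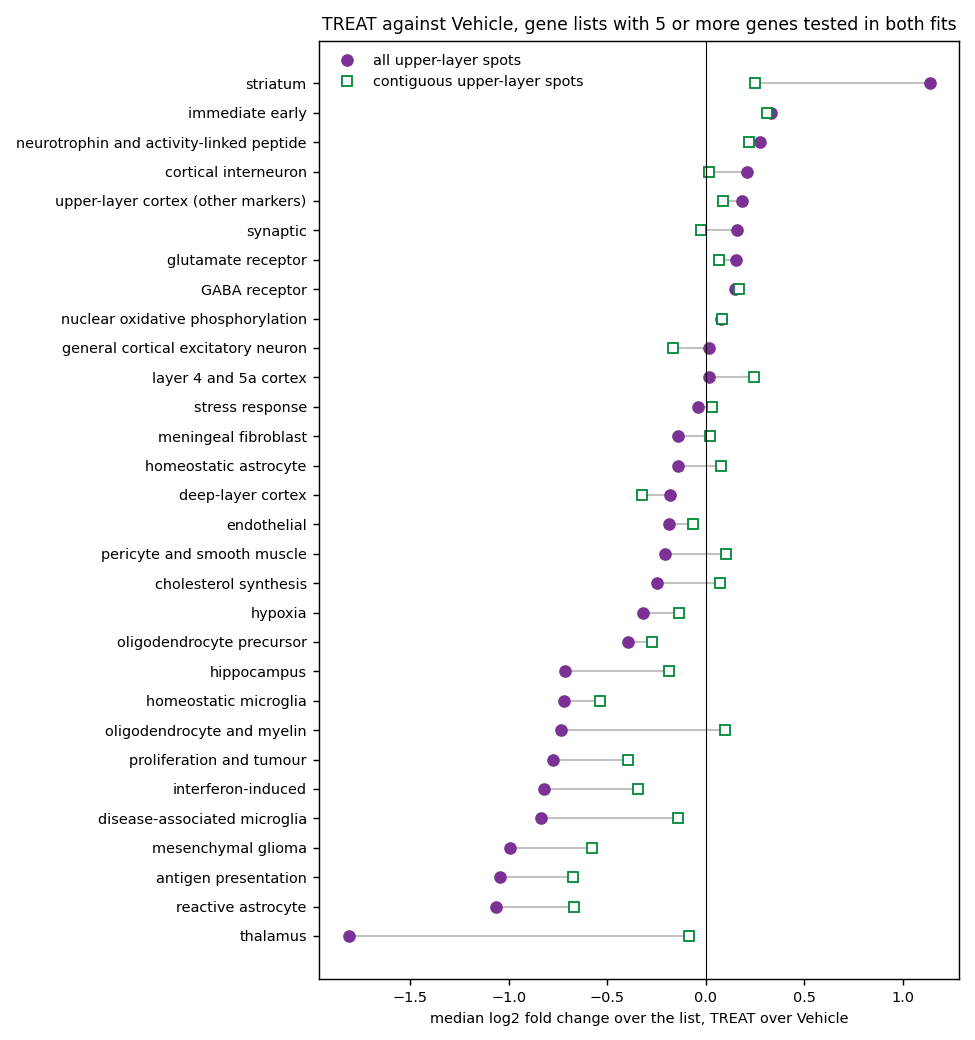
Median log2 fold change (TREAT over Vehicle) of each gene list with at least 5 genes tested, in all upper-layer spots (filled circles) and in contiguous upper-layer spots (open squares). The thalamus list lies at -1.81 and -0.09 and the striatum list at 1.14 and 0.25, whereas the reactive astrocyte list lies at -1.06 and -0.67.

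The same test on contiguous spots was added after the data had been seen. It left out the 173 isolated spots and also the 180 with 1 or 2 upper-layer neighbours, whose regional markers were not summed apart. Of 10655 genes, 15 were higher in TREAT (0.141%) and 44 lower (0.413%) at an adjusted p under 0.05. The lower ones include Cux2, a score gene, which is no result. At an unadjusted p under 0.05, 587 were higher (5.51%) and 721 lower (6.77%). All 59 genes had the same direction in all upper-layer spots, where none passed. limma-trend called 0 genes, with 607 higher and 652 lower at an unadjusted p under 0.05, and DESeq2 called 48, of which 35 were among the 59. Without 1 area in turn the counts were 83 and 128 (TREAT 1+4 and 2+3) and 202 and 77 (Vehicle 1+4 and 2+3), sharing between 40 and 45 genes with the 59. In data of this depth simulated in the same way, with the same limits, the test recovered 57% of 2-fold and 97% of 4-fold changes and made 11 false calls.

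Of the 15 genes that rose in contiguous TREAT spots, 12 are described here. Cabp1, a neuronal calcium sensor, had 740 and 747 CPM in TREAT, against 454 and 360 CPM in Vehicle (log2 fold change 0.82 ± 0.16 SE, edgeR adjusted p = 0.0198). Rph3a, rabphilin of synaptic vesicles, had 464 and 514 CPM in TREAT, against 270 and 261 CPM in Vehicle (0.85 ± 0.16 SE, edgeR adjusted p = 0.0196). Sept5, a septin of presynaptic terminals, had 1576 and 1565 CPM in TREAT, against 1003 and 908 CPM in Vehicle (0.69 ± 0.14 SE). Kcnip2, a subunit of A-type potassium channels, had 135 and 142 CPM in TREAT, against 69.4 and 70.8 CPM in Vehicle. Mal2, a proteolipid of membrane transport, had 258 and 247 CPM in TREAT, against 114 and 106 CPM in Vehicle (1.16 ± 0.18 SE). In each of these genes both TREAT areas lay above both Vehicle areas.

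Frzb, a secreted inhibitor of Wnt signalling (chromosome 2, 80411970 to 80447396, GRCm38), had 60.2 and 53.6 CPM in contiguous TREAT spots, against 8.86 and 12.9 CPM in Vehicle. Its log2 fold change was 2.45 ± 0.38 (SE, edgeR adjusted p = 0.00908), and its 4 TREAT pieces lay between 25.7 and 89.9 CPM, above the 4 Vehicle pieces at 0 to 14.5 CPM. Nol4 had 129 and 134 CPM in TREAT, against 60.6 and 45.1 CPM in Vehicle (1.23 ± 0.22 SE, edgeR adjusted p = 0.016). The remaining named genes that rose were Diras2, a Ras-like GTPase, Rassf3, the septin Sept7, the flippase Atp8b2 and Tcap, with log2 fold changes between 1.01 and 3.10. Of the 24 genes named for contiguous spots, 3 lost the call without TREAT 1+4, 2 without TREAT 2+3, 6 without Vehicle 1+4 and 2 without Vehicle 2+3. Among the 6 were Diras2 and Atp8b2, with log2 fold changes of 0.74 and 0.70. Tcap rested on 88 UMIs in TREAT and 3 in Vehicle, a ratio of pooled rates of 9.09 with a 95% exact counting interval of 3.01 to 44.9.

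Of the 44 genes that fell, 12 are described here, with 3 more from the lists below. Pde1b, a calmodulin-dependent phosphodiesterase (chromosome 15, 103503034 to 103530056, GRCm38), had 15.5 and 10.6 CPM in contiguous TREAT spots, against 70.9 and 45.1 CPM in Vehicle (log2 fold change -2.24 ± 0.34 SE, edgeR adjusted p = 0.00908). Its relative Pde1a had 119 and 129 CPM in TREAT, against 244 and 280 CPM in Vehicle (-1.09 ± 0.17 SE). Dgkg (chromosome 16, 22466568 to 22657302, GRCm38) had 29.2 and 36.4 CPM in TREAT, against 94.5 and 116 CPM in Vehicle (-1.67 ± 0.24 SE). Itm2b (chromosome 14, 73362226 to 73385289, GRCm38) had 815 and 820 CPM in TREAT, against 1403 and 1616 CPM in Vehicle. The pieces of tissue were separate for Pde1b, Dgkg and Itm2b and overlapped for Pde1a.

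The other named genes that fell have varied roles. Basp1, a growth cone protein, had 1693 and 1547 CPM in TREAT, against 2675 and 2877 CPM in Vehicle (log2 fold change -0.80 ± 0.13 SE). Tmsb10, an actin-binding thymosin, had 310 and 253 CPM in TREAT, against 502 and 628 CPM in Vehicle (-1.01 ± 0.17 SE). Syn2, a synapsin, had 210 and 213 CPM in TREAT, against 391 and 418 CPM in Vehicle (-0.95 ± 0.16 SE). Col6a1, a collagen VI chain, had 11.3 and 7.95 CPM in TREAT, against 44.3 and 41.8 CPM in Vehicle, and Timp2, a metalloprotease inhibitor, 186 and 152 CPM, against 304 and 457 CPM. Dkk3, Nnat and the RNA-binding protein gene Khdrbs2 fell by 1.14, 1.52 and 1.06 on the log2 scale, and Nnat by 1.00 without Vehicle 2+3.

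Members of the fixed lists among the genes that fell were few. They were Wfs1 of the upper-layer list (also in the hippocampus list), Rprm of the deep-layer list and Serpina3n of the reactive astrocyte list. Wfs1, an endoplasmic reticulum membrane protein gene, had 104 and 94.7 CPM in contiguous TREAT spots, against 179 and 254 CPM in Vehicle (log2 fold change -1.10 ± 0.20 SE, edgeR adjusted p = 0.015). Rprm, a cell cycle inhibitor that marks deep cortical neurons, had 17.9 and 19.2 CPM in TREAT, against 53.2 and 70.8 CPM in Vehicle (-1.71 ± 0.30 SE). Serpina3n, a protease inhibitor of reactive astrocytes, had 11.3 and 18.5 CPM in TREAT, against 39.9 and 90.1 CPM in Vehicle (edgeR adjusted p = 0.0235). The 8 deep-layer genes tested summed to 248 and 229 CPM in contiguous TREAT spots, against 310 and 283 CPM in contiguous Vehicle spots. Where along the cortex and how deep each patch lay was not matched between areas, and its part in these values was not tested. Of the 24 genes named for contiguous spots, 18 were also separate between the pieces of tissue, 11 higher and 7 lower, and 6 overlapped. The pieces make up the areas by which the genes were named, so this is no independent support, and 1 piece of Vehicle 2+3 held only 6 contiguous spots.

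**Figure D4:**
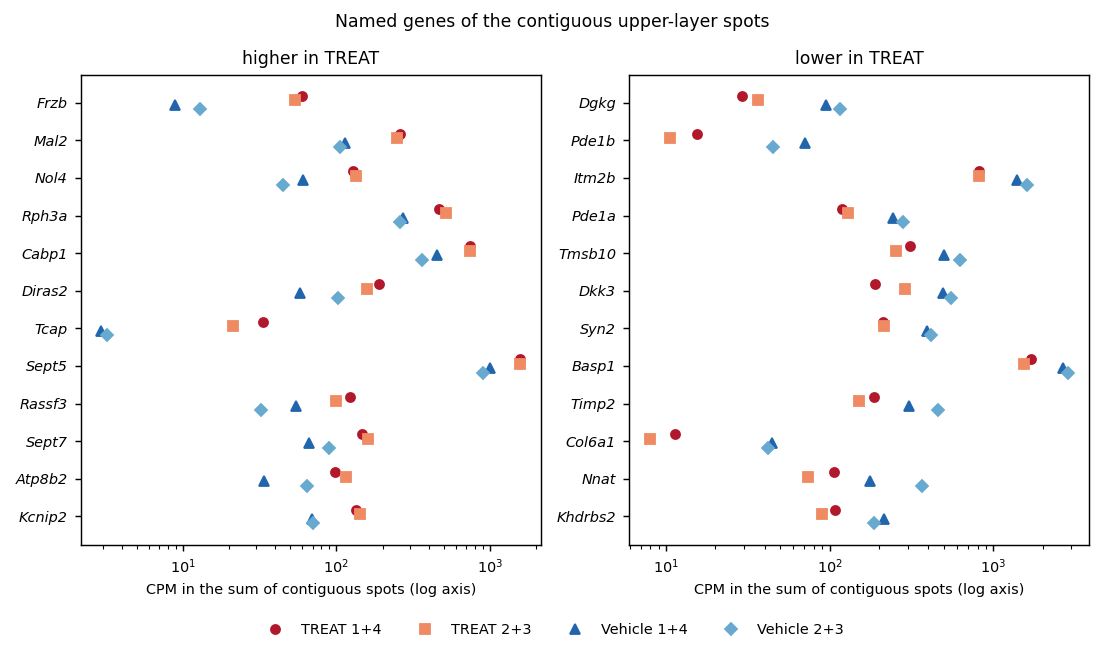
CPM (log axis) of the 24 genes named for contiguous upper-layer spots, with 1 symbol per capture area and the 12 higher genes at left. For each gene both TREAT areas lie on one side of both Vehicle areas, as the rule for naming required. Frzb has 60.2 and 53.6 CPM in TREAT and 8.86 and 12.9 CPM in Vehicle.

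The next comparison asked whether the TREAT effect in upper-layer spots differed from that in all other spots, as an interaction with the area as a block. It differed for 1028 genes upward (5.14%) and 667 downward (3.34%) of 19983 tested. Scaled to library totals in place of TMM (edgeR's trimmed mean of M-values), the split was 337 upward and 1725 downward, and the median log2 difference over all genes was -0.12 in place of 0.19. Directions are therefore relative to that median. Leaving out 1 area gave 468 (TREAT 1+4), 3685 (TREAT 2+3), 452 (Vehicle 1+4) and 73 genes (Vehicle 2+3). Other spots alone differed between TREAT and Vehicle in 1922 of 20257 genes (9.49%), 429 higher and 1493 lower, or 4028 higher and 819 lower with library totals. That count was 6407 without TREAT 2+3, 3 without Vehicle 2+3 and 0 without Vehicle 1+4, where 2587 were higher and 2561 lower at an unadjusted p under 0.05.

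The 12 named genes with a positive difference fell in other spots and did not pass in upper-layer spots. Ier2, an immediate early gene, had 18.3 and 34.4 CPM in upper-layer TREAT spots and 24.6 and 33.3 CPM in upper-layer Vehicle spots. In other spots Ier2 had 34.5 and 68.6 CPM in TREAT, against 168 and 190 CPM in Vehicle, so that the difference of log2 fold changes was 2.02 ± 0.31 (SE, edgeR adjusted p = 2.1e-05). Cdkn1a, the cell cycle inhibitor p21, had log2 fold changes of -0.06 in upper-layer and -1.87 in other spots, and Junb, a partner of Fos, -0.01 and -1.61. Ccnd2, a cyclin, Shf, Plcd3, Pxdc1, Tmem200b, Wdr55, the ETS factor Etv4 and the histone gene Hist2h2bb showed the same order, with differences between 1.62 and 2.39. Rassf3 had a log2 fold change of 0.97 in upper-layer spots and -0.84 in other spots. The call was lost for Rassf3 and Shf without Vehicle 2+3 (differences of 1.47 and 1.47) and for Pxdc1 without Vehicle 1+4 (1.53). Lesion spots, which made up less of the TREAT areas, are all among the other spots, and their part in these differences was not tested.

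Of the 12 named genes with a negative difference, 4 belong to the thalamus list. Prkcd had 21.5 and 14.2 CPM in upper-layer TREAT spots, against 84.8 and 162 CPM in upper-layer Vehicle spots, and 452 and 208 CPM in other TREAT spots, against 149 and 162 CPM in other Vehicle spots. The Prkcd difference was -3.43 ± 0.30 (SE, edgeR adjusted p = 4.6e-13). Of 10 thalamus genes, 9 had a negative difference past the threshold, including Plekhg1 (-2.81), Zic1 (-2.34) and Synpo2 (-2.98), and so had 11 of 11 myelin genes. Abhd12b, Tnnt1, Rab37 and Epn3 had differences between -4.53 and -3.12. Of the hypothalamic peptides, Avp, vasopressin, had 33.1 and 1.98 CPM in upper-layer TREAT spots, against 2.23 and 656 CPM in upper-layer Vehicle spots. Avp had the smallest p of this comparison although its areas lay that far apart within each group. The p-values of the interaction thus do not follow the spread of each gene between areas. Without Vehicle 2+3 the Avp difference was -1.99, in place of -4.58, and did not pass. Hcrt, orexin, had 263 CPM and Pmch, melanin-concentrating hormone, 209 CPM in upper-layer spots of Vehicle 2+3. In other spots of TREAT 1+4 they had 277 and 656 CPM. Their differences still passed without that area but were -1.66 for Hcrt and -2.04 for Pmch, and that of Abhd12b was -2.87.

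**Figure D5:**
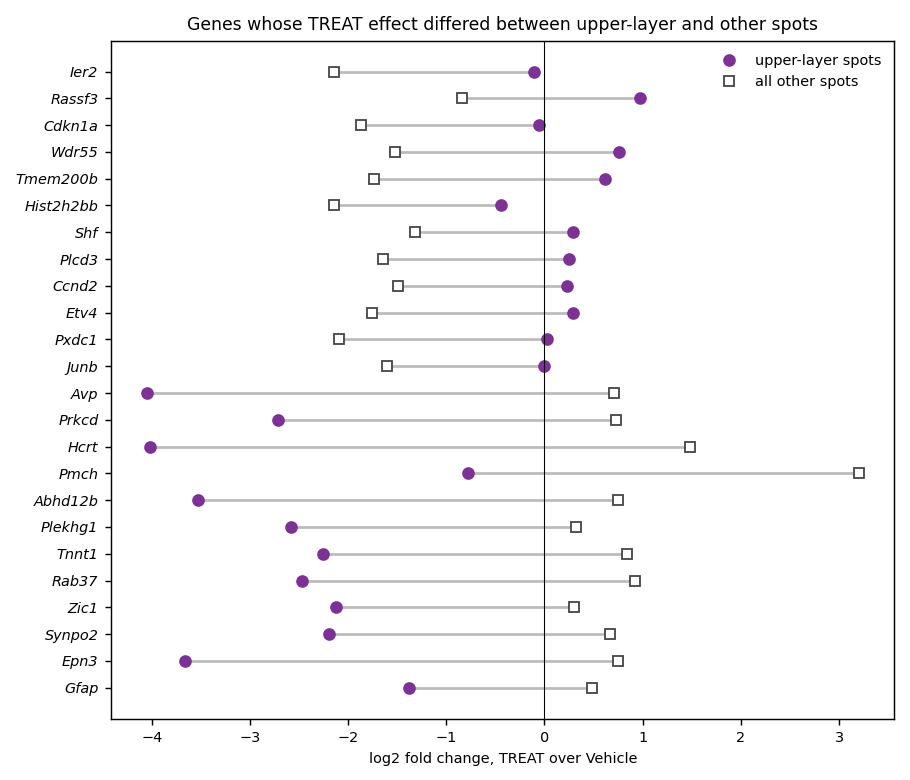
Log2 fold change (TREAT over Vehicle) in upper-layer spots (filled circles) and in all other spots (open squares) for the 24 genes named for the difference between them, 12 upward above and 12 downward below. Ier2 lies at -0.11 and -2.14, and Prkcd at -2.71 and 0.72.

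Set against deep-layer spots, the nearest tissue in kind, the TREAT effect differed for 12 of 12009 genes (0.0999%), 6 upward and 6 downward, of which Cux2 is a score gene. Without TREAT 1+4 edgeR called 0 genes (254 upward and 232 downward at an unadjusted p under 0.05), and without TREAT 2+3 also 0 (202 and 280). All 11 genes described below as past the threshold therefore lose it without either TREAT area. Without Vehicle 1+4 the count was 425, and without Vehicle 2+3 it was 45. Deep-layer spots alone gave 19 of 11411 genes (0.167%). Prkca, protein kinase C alpha, had 79.2 and 83.8 CPM in upper-layer TREAT spots, against 50.6 and 43.8 CPM in upper-layer Vehicle spots. In deep-layer spots Prkca had 37.9 and 34.4 CPM in TREAT, against 75.8 and 155 CPM in Vehicle, and the difference was 2.30 ± 0.31 (SE, edgeR adjusted p = 0.0416). Cpne7, a copine, had log2 fold changes of -0.68 in upper-layer and -2.11 in deep-layer spots. Lpl, lipoprotein lipase, had 0.43 and -2.61, and the adhesion gene Pcdh20 0.03 and -2.74. Rerg and Fibcd1 also had positive differences, of 2.74 and 3.21, and Fibcd1 one of 2.00 without Vehicle 1+4, which did not pass.

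On the negative side against deep-layer spots stood 2 glial genes. Gfap had log2 fold changes of -1.38 in upper-layer and -0.21 in deep-layer spots, a difference of -1.27 ± 0.20 (SE, edgeR adjusted p = 0.0464). C4b, a complement component raised in reactive glia, had 55.2 and 86.5 CPM in upper-layer TREAT spots, against 139 and 245 CPM in upper-layer Vehicle spots. In deep-layer spots C4b had 234 and 280 CPM in TREAT, against 188 and 386 CPM in Vehicle, where the groups overlapped. Ntng2, a netrin-G adhesion protein gene, differed by -1.32, Zdhhc22, a palmitoyltransferase, by -1.46, and Prkcd by -2.05. Tmem163 had the next smallest p, with a difference of -2.06 and an edgeR adjusted p of 0.0789.

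The share of spots that met the rule was compared last, as a description, since the score chose them. It was 5.52% in TREAT 1+4 (95% Wilson interval 4.80 to 6.35) and 5.59% in TREAT 2+3 (4.83 to 6.47), against 5.80% in Vehicle 1+4 (5.02 to 6.69) and 3.22% in Vehicle 2+3 (2.67 to 3.87). The mean was 5.56% ± 0.048 in TREAT and 4.51% ± 1.83 in Vehicle (SD, n = 2 areas each), and the intervals cover counting error only. The 2-sided exact permutation p was 1, and 2 areas against 2 cannot go below 0.333. Thinned to 2000 UMIs per spot, the shares were 7.44% and 6.79% in TREAT and 5.97% and 2.80% in Vehicle. Contiguous spots alone made up 2.72% and 3.23% of the TREAT areas and 2.19% and 0.842% of the Vehicle areas. In both of these settings the TREAT areas lay above the Vehicle areas, which the design cannot test further. All these shares are of the used spots, lesion spots included, which made up 6.24% and 12.9% of the TREAT areas and 26.4% and 34.4% of the Vehicle areas. With lesion spots left out of the total, the contiguous share of TREAT 1+4 no longer lay above that of Vehicle 1+4. The order of the areas thus depends on which spots are counted.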

How the data were processed

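Spatial gene expression was measured with probe-based libraries from formalin-fixed sections on 4 capture areas. The deposited files hold UMI counts per probe-targeted gene and spot, which the authors made with Space Ranger 2.1.1 against mm10, per the submitters' processing notes, where R 4.4.1 and Seurat are also named. The deposited spot positions and scale factors are other values, used for tissue flags and array rows and columns. Settings of the alignment were not given in the sources used here.

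Of 32589 features, 304 marked deprecated were left out of the tests but kept in CPM totals. Spots were filtered at 2000 UMIs, and no doublet caller was run. Upper-layer counts were summed per capture area and tested with edgeR 4.0.16 (TMM, filterByExpr, quasi-likelihood test, Benjamini-Hochberg adjustment) in R 4.3.3. limma 3.58.1 and DESeq2 1.42.0 served as alternatives. Log2 ratios of levels were taken after adding 0.5 to each summed count. The fits were tested on simulated data. Interaction terms used the capture area as a block.

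Members and gene lists were chosen with earlier results of these data known. Named genes are, on either side of a comparison, up to 12 of lowest p past an adjusted p of 0.05 whose areas do not overlap, or 6 by unadjusted p where fewer than 6 pass, up to 4 per list, and the 15 highest and 10 lowest level ratios. Genes of lists named to make a contrast of levels were chosen after their values were seen. Gene positions come from RefSeq on GRCm38.p6, matched by symbol for 20013 of 20457 genes. Same-numbered areas did not deviate together (correlation -0.0891 over 2 pairs), so the numbers were not treated as pairs.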

Additional observations from a re-analysis of the deposited data

Results flagged for a closer look

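The difference between the TREAT effects in upper-layer and other spots was past an adjusted p of 0.05, by edgeR's interaction test, for 1695 genes. The differences of log2 fold changes on the positive side were 2.39 for Wdr55, 2.38 for Tmem200b, 2.18 for Pxdc1, 2.13 for Etv4, 2.02 for Ier2, 1.96 for Plcd3, 1.81 for Rassf3, 1.78 for Cdkn1a, 1.75 for Hist2h2bb, 1.69 for Ccnd2, 1.62 for Shf and 1.62 for Junb. On the negative side they were -5.01 for Hcrt, -4.58 for Avp, -4.53 for Epn3, -4.33 for Abhd12b, -3.43 for Prkcd, -3.39 for Rab37, -3.38 for Pmch, -3.12 for Tnnt1, -2.98 for Synpo2, -2.81 for Plekhg1, -2.34 for Zic1 and -1.96 for Gfap.

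Against deep-layer spots the same test gave 12 genes. The differences were 3.21 for Fibcd1, 2.90 for Lpl, 2.74 for Rerg, 2.73 for Pcdh20, 2.30 for Prkca and 1.44 for Cpne7. They were -2.05 for Prkcd, -1.46 for Zdhhc22, -1.32 for C4b, -1.32 for Ntng2 and -1.27 for Gfap. None of these 11 passed when either TREAT area was left out.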

How the results depend on the processing

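With 2 areas a group, calls were sensitive to the areas and settings used, and the cause was not tested. For TREAT against Vehicle in upper-layer spots, edgeR's 0 genes became 4 with library totals, 395 with no gene filter, 3 at 10 CPM, 4 at the 90th percentile and 84 at a stricter one than the 95th, 4 with the percentile taken within each area, 20 at 5000 UMIs, 9 after thinning, 6 without Rorb, 32 with 2 or more score genes, 58 with DESeq2 and 59 in contiguous spots. Leaving out 1 area gave 0 to 537 genes. In contiguous spots Cabp7 and Prkcd turned to 0.94 and 0.29. In contiguous spots limma-trend gave 0 genes and leaving out 1 area 77 to 202. For other spots library totals gave 4847 genes, the minimum of 10 CPM 0 (2314 higher and 2066 lower at an unadjusted p under 0.05), and leaving out 1 area 0 to 6407. For the difference from other spots 10 CPM gave 1033 genes and leaving out 1 area 73 to 3685. For the difference from deep-layer spots library totals gave 21 genes and leaving out 1 area 0 to 425. With the replicate block, upper-layer spots gave 8 genes and contiguous spots 205. The contiguous settings and the deep-layer spots alone were chosen after seeing the data. Depth limits the Vehicle values most, with 661371 UMIs behind the upper-layer sum of Vehicle 2+3.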
